A study of Homo sapiens with 12 samples.

Results

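The genes described here, 10 in number, carry glucose from outside the cell to lactate, and were followed across doxorubicin treatment and expression of 2 SMC5/6 subunits in HCT116, a long-established cell line from a human colorectal carcinoma. They are SLC2A1, HK1, HK2, PFKP, ALDOA, GAPDH, PGK1, ENO1, PKM and LDHA, chosen by a rule on their place in the pathway that uses no measured value, though with earlier results of these data known. Each of the 10 was found by symbol among the 57908 loci of the deposited table, and all 10 were among the 15833 loci tested. Cells of the control groups, labelled WT, were transfected with a plasmid that the sample titles call GFP and the design text a vector. NSE4 cells were given NSE4A-flag instead, and SMC5 cells SMC5-flag. NSE4A and SMC5 are subunits of the SMC5/6 complex, a ring-shaped ATPase that acts in DNA repair. Each transfected population was split after 24 h and kept for 24 h more in PBS or in 1000 nM doxorubicin, an anthracycline that poisons topoisomerase II. This gave 6 groups of 2 libraries, named GFP, NSE4 and SMC5, and GFP-DOX, NSE4-DOX and SMC5-DOX with the drug. All groups were transfected, so none shows untransfected cells, and the sources used here do not give the share of cells that took up a plasmid.

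Glycolysis splits glucose into pyruvate and yields ATP in the cytosol. Glucose enters through facilitative transporters and is trapped by hexokinase, committed by phosphofructokinase and cut by aldolase into 3-carbon sugars. The later enzymes recover energy from these and end at pyruvate kinase, and lactate dehydrogenase then turns pyruvate into lactate and regenerates NAD+. Many tumour cells, those of the colon included, run this route to lactate in the presence of oxygen, and several of its genes are known targets of the transcription factors HIF1 and MYC.

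Levels are in FPKM, fragments per kilobase of transcript scaled to the mapped fragments of the library, so levels of different genes can be set side by side. The files state no total counts, and low values could not be turned back into whole fragments, so the depth behind a value is unknown here. Mitochondrially encoded loci (MT- loci) took 28.9 to 46.2% of the summed FPKM of the untreated libraries and 34.9 to 45.6% of the treated ones, with the highest share in NSE4 replicate 1. The 2 SMC5-DOX columns held 1091 identical values above 0, against 0 in each other pair, and just 7 loci were detected in 1 column and not the other, where the remaining pairs had 4216 to 5291 such loci. They were not identical throughout (PKM read 1054 and 1252 FPKM), but their mean was counted as 1 sample, which left 11 samples. Whether paired libraries are separate cultures is not stated, and p-values therefore reflect only how far these samples scatter, which may be technical variation. The epithelial markers EPCAM (123 to 146 FPKM), CDH1 (24.2 to 30.1), KRT8 and KRT18 were present in every sample. PTPRC, CD3E, VWF, COL3A1 and PDGFRB, markers of blood, vessel and stromal cells, stood at 1.21 FPKM or less, and COL1A1 at 15.6 to 27.0. RNA came from bulk cultures, in which fewer cells with a transcript and less of it per cell cannot be told apart.

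Of the 10 loci 8 carry the gene's symbol alone. The SLC2A1 locus also names AC099795.1, and the PFKP locus also names AL451164.3 and PITRM1-AS1, and fragments of these partners cannot be separated from those of the coding gene. PKM values are per gene and do not tell the PKM1 and PKM2 splice forms apart. Glycolysis genes have many processed pseudogenes, which could draw fragments away. The table holds 60 pseudogene loci named for GAPDH, of which the highest, GAPDHP55, had a mean of 0.394 FPKM, or 0.0148% of GAPDH. The highest named for LDHA was LDHAP4, at 0.0531% of its parent, and PKMP5 stood at 0.0477% of PKM.

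A pair of promoters is shown because they hold the core letters of the hypoxia response element, ACGTG. The pair was also chosen because PGK1 passed the doxorubicin test and LDHA did not, as described further on. No test compared the 2 genes with each other. The promoters are the stretches upstream of the RefSeq gene start that lie outside annotated GENCODE exons, in GRCh38.p14. They are given 5′ to 3′ on the gene's strand, with ACGTG or its reverse complement CACGT in capitals.
PGK1, chrX:78103998-78104173, plus strand, 250 to 75 bases before the gene start: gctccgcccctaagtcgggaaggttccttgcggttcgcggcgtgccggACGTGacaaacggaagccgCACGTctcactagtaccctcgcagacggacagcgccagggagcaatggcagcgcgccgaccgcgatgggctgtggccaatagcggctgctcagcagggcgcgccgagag
LDHA, chr11:18394313-18394387, plus strand, 250 to 176 bases before the gene start: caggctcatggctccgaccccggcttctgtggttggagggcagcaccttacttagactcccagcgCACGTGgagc
The PGK1 stretch has 2 matches, 1 on each strand. The LDHA stretch has 2 that overlap in the palindrome CACGTG, which is also the E-box bound by MYC. Of the 10 genes 7 have a RefSeq window at their first base, and the motif was found on either strand of the 250 bases upstream in 4 of these 7 (HK2, ALDOA, PGK1 and LDHA). It was found in 18.5% of all 35116 RefSeq windows of the same length. Those windows were not matched to these genes in base content or level, and enrichment was not tested. For each of the 7 genes 1 window was searched, although some have more, such as HK1 with 7. All 250 bases of the SLC2A1, HK2 and ENO1 windows lie within annotated exons. A match describes the letters alone, and no binding was measured.

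In untreated GFP cells the hexokinases had the lowest levels and aldolase and GAPDH the highest. HK2 stood at 29.3 ± 6.94 FPKM (SD, n = 2), HK1 at 43.0 ± 3.20, PFKP at 162 ± 2.52, PGK1 at 244 ± 2.65 and SLC2A1 at 257 ± 43.9. LDHA stood at 758 ± 57.9, PKM at 947 ± 3.20, ENO1 at 1630.1 ± 3.57, ALDOA at 2062 ± 235 and GAPDH at 3033 ± 241 FPKM. The ranges of PGK1 and SLC2A1 overlapped in GFP cells, and their order was the other way round in NSE4 and SMC5 cells. In all 3 treated groups PKM stood above ENO1, whereas in all 3 untreated groups it stood below. ALDOA stood above GAPDH in NSE4-DOX and SMC5-DOX samples, and below it in GFP-DOX samples and without the drug. By group mean, 8 of the 10 genes were highest in untreated SMC5 cells and 9 were lowest in GFP-DOX cells. These orders were not set against those of all loci, and no member passed a comparison between plasmids. PKM was the exception at the low end, with its lowest mean in untreated GFP cells. Together the 10 genes made up 1.18 to 1.46% of the FPKM outside MT- loci without the drug and 1.09 to 1.26% with it.

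**Figure D1:**
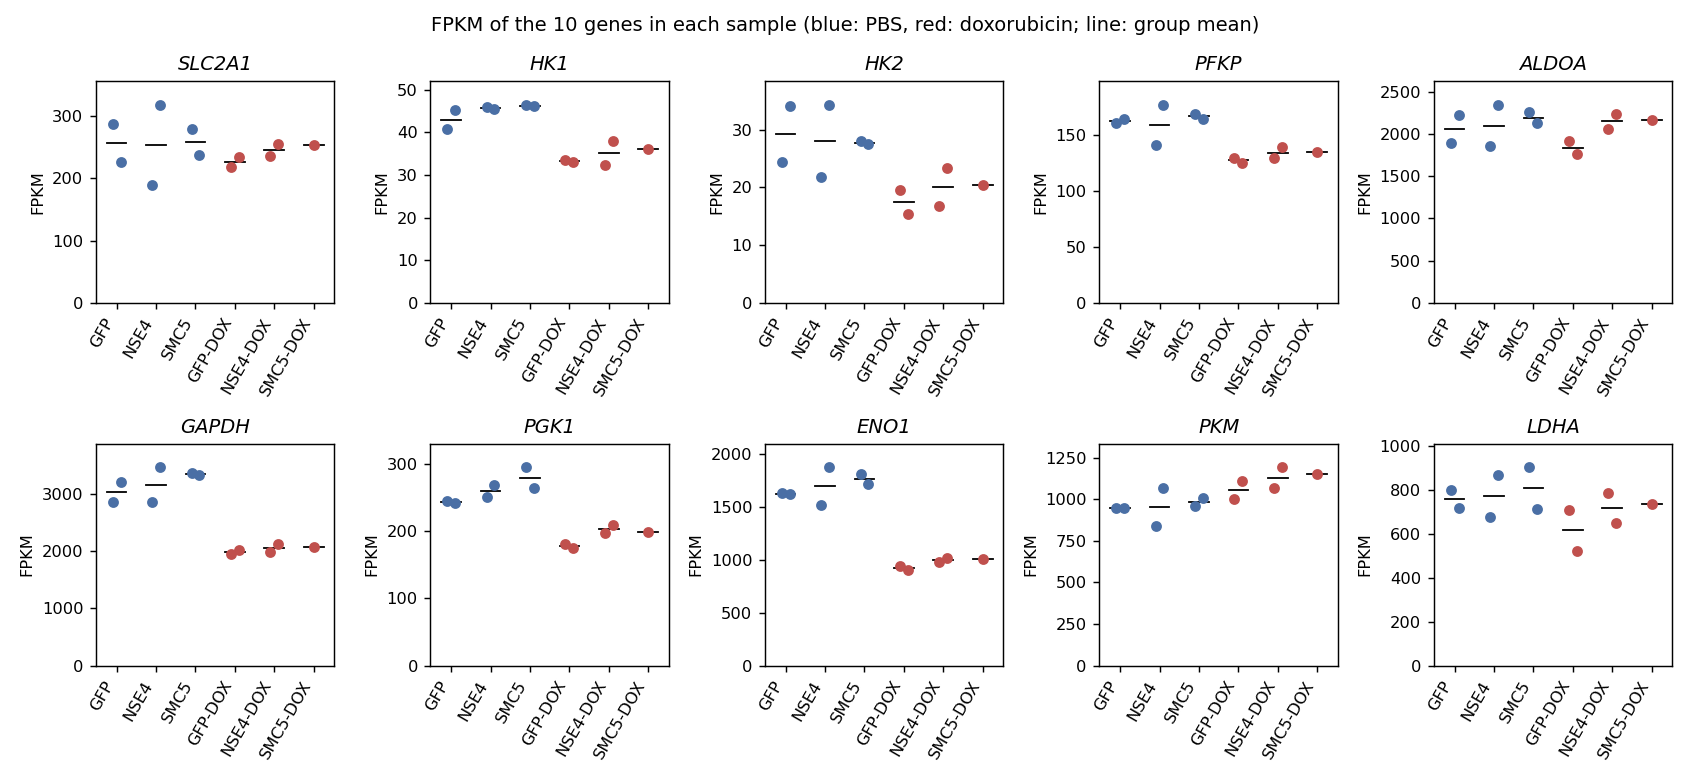
FPKM of each of the 10 genes (vertical axes, linear, from 0) in the 11 samples, by group; points are samples, short lines group means, blue PBS and red doxorubicin, and SMC5-DOX is the mean of 2 near-identical columns. The red points of HK1, PFKP, GAPDH, PGK1 and ENO1 all lie below the blue ones, and ENO1 ran from 1523 to 1877 FPKM without the drug and from 908 to 1018 with it.

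Doxorubicin lowered part of the pathway. ENO1, GAPDH and PGK1 fell in all 3 backgrounds, HK1 in GFP and NSE4 cells and PFKP in GFP cells, whereas SLC2A1, HK2, ALDOA, PKM and LDHA passed the test in no single background. In GFP cells 5 of the 10 fell and 0 rose (limma, Benjamini-Hochberg adjusted p under 0.05 over all loci), beside 14.1% of all tested loci that fell and 17% that rose. In NSE4 cells 4 fell and 0 rose, beside 13.9% and 16.3% of all loci, and in SMC5 cells 3 fell and 0 rose, beside 9.87% and 11%. The median difference of the 10 genes on the log2(FPKM + 1) scale was −0.35, −0.29 and −0.32, where that of all tested loci was 0.02, 0.03 and 0.02. Highly expressed loci fell more often in general. In the mean of the 3 doxorubicin differences, 48.1% of the 906 loci with a mean of at least 100 FPKM fell, against 23.6% of all loci that fell and 28% that rose. Of the 8 members above that level 4 fell, or 50.0%, close to the share of all such loci.

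SLC2A1 encodes GLUT1, the main glucose transporter of most tumour cells. Its 2 libraries read 288 and 225 FPKM in GFP, 189 and 318 in NSE4 and 279 and 237 in SMC5 cells, and with the drug 219 and 233 in GFP-DOX, 236 and 254 in NSE4-DOX and 253 in the SMC5-DOX sample. The treated values lay inside the untreated range. The log2 differences were −0.17, 0.00 and −0.02 (95% intervals −0.69 to 0.34, −0.51 to 0.52 and −0.65 to 0.61), so changes within those bounds remain possible.

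HK1 and HK2 are the hexokinases, HK1 expressed in most tissues and HK2 the inducible form common in tumours. HK1 read 40.7 and 45.2 FPKM in GFP, 45.9 and 45.4 in NSE4 and 46.5 and 46.1 in SMC5 cells, against 33.5 and 33.0 in GFP-DOX, 32.2 and 38.0 in NSE4-DOX and 36.1 in the SMC5-DOX sample. Every treated sample was below every untreated one. HK1 fell by 0.36 in GFP cells (SE 0.10, limma adjusted p = 0.0315) and by 0.38 in NSE4 cells (adjusted p = 0.0273), while its difference of −0.35 in SMC5 cells missed the threshold (adjusted p = 0.0864). HK2 read 24.4 and 34.2 FPKM in GFP and 15.3 to 19.5 in GFP-DOX, 21.8 and 34.3 in NSE4 and 16.8 and 23.3 in NSE4-DOX, and 28.0 and 27.5 in SMC5 against 20.4 in SMC5-DOX. Its treated and untreated values overlapped only through NSE4 replicate 1 and NSE4-DOX replicate 2. HK2 differed by −0.71, −0.45 and −0.42, and none of these passed the test (limma adjusted p = 0.064, 0.215 and 0.366). Under other settings of the fit HK2 passed in GFP cells in 6 of 15, and HK1 passed in SMC5 cells in 6 of 15. The HK1 to HK2 ratio of FPKM was 1.32 to 2.10 without the drug and 1.63 to 2.15 with it.

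PFKP is the platelet-type phosphofructokinase, which commits fructose 6-phosphate to glycolysis. It read 161 and 164 FPKM in GFP, 141 and 177 in NSE4 and 169 and 164 in SMC5 cells, against 129.6 and 125 in GFP-DOX, 129.5 and 139 in NSE4-DOX and 135 in SMC5-DOX. With the SMC5-DOX columns averaged, the groups with and without drug did not overlap, though NSE4 replicate 1 lay within 2 FPKM of the highest treated value. The second SMC5-DOX column alone read 145 FPKM, above NSE4 replicate 1. PFKP fell by 0.35 in GFP cells (SE 0.11, limma adjusted p = 0.0455), and its differences of −0.23 and −0.30 in NSE4 and SMC5 cells did not pass (adjusted p = 0.151 and 0.159). ALDOA, the aldolase that splits fructose 1,6-bisphosphate, read 1896 and 2229 FPKM in GFP against 1919 and 1757 in GFP-DOX. In NSE4 cells it read 1852 and 2344 against 2055 and 2241, and in SMC5 cells 2257 and 2123 against 2159. The values overlapped in every background, with log2 differences of −0.16, 0.04 and −0.02 (95% intervals −0.46 to 0.13, −0.25 to 0.34 and −0.38 to 0.34).

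GAPDH oxidizes glyceraldehyde 3-phosphate and is widely used as a reference gene. It read 2863 and 3203 FPKM in GFP, 2861 and 3458 in NSE4 and 3369 and 3328 in SMC5 cells, against 1943 and 2011 in GFP-DOX, 1989.6 and 2118 in NSE4-DOX and 2072 in SMC5-DOX. No treated sample reached the lowest untreated one. GAPDH fell by 0.62, 0.62 and 0.69 (SE 0.10, 0.10 and 0.13; limma adjusted p = 0.00322, 0.00326 and 0.00745), and its mean over the treated samples was 63.7% of that over the untreated ones. PGK1, the next enzyme and the first to yield ATP, read 246 and 242 FPKM in GFP, 251 and 269 in NSE4 and 295 and 265 in SMC5 cells. With the drug it read 181 and 175 in GFP-DOX, 197 and 210.1 in NSE4-DOX and 199 in SMC5-DOX, again all below the untreated values. PGK1 fell by 0.45, 0.35 and 0.49 (SE 0.09, 0.09 and 0.11; limma adjusted p = 0.00615, 0.0174 and 0.015). Of the promoters shown above, that of PGK1 thus belongs to a gene that fell and that of LDHA to one that did not pass. The other searched genes with the motif, HK2 and ALDOA, passed in no single background. Of those without it, ENO1 and HK1 fell and SLC2A1 did not pass. A relation of motif and response was not tested.

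ENO1 is the enolase that makes phosphoenolpyruvate, and its difference on the log2 scale was the largest of the 10 genes in each background on the deposited scale with all libraries. Without GFP replicate 1 or GFP-DOX replicate 1, HK2 was further from 0 in GFP cells (−0.94 and −0.87, against −0.81 and −0.84), and under quantile normalization HK2 was further from 0 in all 3 backgrounds, and PKM and ALDOA in NSE4 and SMC5 cells. ENO1 read 1633 and 1628 FPKM in GFP, 1523 and 1877 in NSE4 and 1813 and 1723 in SMC5 cells, against 944 and 908 in GFP-DOX, 982 and 1018 in NSE4-DOX and 1006 in SMC5-DOX. All 5 treated samples lay below all 6 untreated ones. ENO1 fell by 0.82, 0.76 and 0.81 (SE 0.10, 0.10 and 0.12; limma adjusted p = 7.95e-04, 0.00113 and 0.00347). PKM, the pyruvate kinase that follows it, read 945 and 949 FPKM in GFP, 839.6 and 1068 in NSE4 and 958 and 1007 in SMC5 cells. With the drug it read 1003 and 1107 in GFP-DOX, 1069 and 1191 in NSE4-DOX and 1153 in SMC5-DOX, and NSE4 replicate 2 alone of the untreated samples reached into the treated range, besides SMC5 replicate 2 just above its lower end. The PKM differences were 0.15, 0.25 and 0.23 and did not pass in any background (limma adjusted p = 0.363, 0.146 and 0.302).

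LDHA, the lactate dehydrogenase subunit that predominates in glycolytic cells, read 799 and 717 FPKM in GFP against 708 and 522 in GFP-DOX, 676 and 866 in NSE4 against 786 and 649 in NSE4-DOX, and 902 and 714 in SMC5 against 738 in SMC5-DOX. Values with and without drug overlapped, and the differences of −0.32, −0.10 and −0.12 did not pass (limma adjusted p = 0.247, 0.733 and 0.757).

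**Figure D2:**
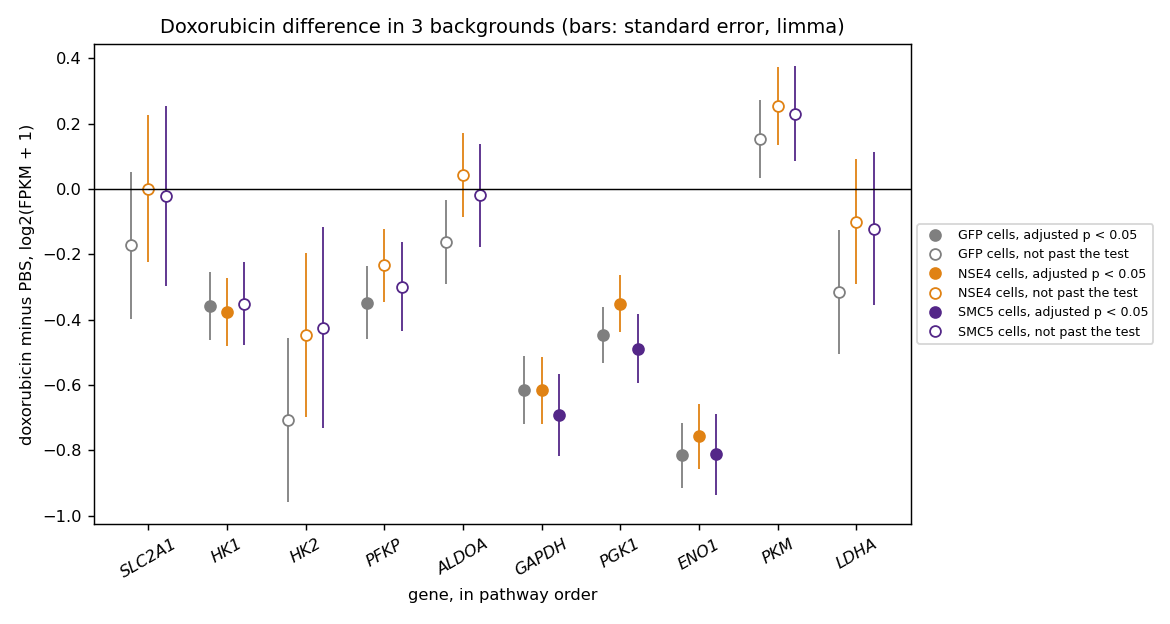
Doxorubicin minus PBS on the log2(FPKM + 1) scale (vertical axis) for the 10 genes in pathway order (horizontal axis), in GFP, NSE4 and SMC5 cells; bars are standard errors from limma, and filled points passed an adjusted p of 0.05. ENO1 lies lowest, at −0.82, −0.76 and −0.81, and PKM alone is above 0 in all 3 backgrounds.

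Averaged over the 3 backgrounds, a comparison added after the values were seen, 6 members fell and 1 rose. Of all tested loci 23.6% fell and 28% rose in that mean. Among loci with a mean of at least 100 FPKM 48.1% fell, beside 4 of the 8 members above that level. ENO1 fell by 0.79, GAPDH by 0.64, HK2 by 0.53, PGK1 by 0.43, HK1 by 0.36 and PFKP by 0.29 (limma adjusted p from 2.53e-05 for ENO1 to 0.0217 for HK2). HK2 lost this call in 5 of 22 alternatives, without GFP replicate 2, GFP-DOX replicate 2 or NSE4-DOX replicate 1 (limma adjusted p = 0.0535, 0.0571 and 0.0528), with no filter (0.0669) and with MT- loci left out (0.0695). PFKP lost it with MT- loci left out (adjusted p = 0.23) and GAPDH under quantile normalization (0.181). PKM rose by 0.21 (SE 0.07, adjusted p = 0.0413), a call lost in 11 of 22 alternatives, 8 of which leave out 1 library (GFP replicate 1 or 2, GFP-DOX 2, NSE4 1, NSE4-DOX 2, SMC5 1 or 2, or the second SMC5-DOX column; adjusted p 0.058 to 0.0981). With SMC5-DOX as the mean of its columns, every treated sample was below every untreated one for 5 of the 10 genes, beside 18.6% of all loci. PFKP was among the 5 only through that mean, and the 18.6% was not restricted to highly expressed loci. For 0 of the 10 was every treated sample above every untreated one, beside 22% of all loci. As a share of the untreated mean, the treated mean was 57.2% for ENO1, 67.3% for HK2, 73.7% for PGK1, 76.8% for HK1, 81.0% for PFKP, 87.4% for LDHA, 93.5% for SLC2A1, 95.7% for ALDOA and 115% for PKM. 

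Several of these calls rested on single libraries or on the scaling. In GFP cells HK1 and PFKP lost their calls on removal of any 1 of the 4 libraries (limma adjusted p 0.0563 to 0.168). In NSE4 cells HK1 lost its call without NSE4 replicate 1 or 2 or NSE4-DOX replicate 1 (adjusted p 0.0928, 0.0783 and 0.149), and PGK1 without NSE4 replicate 2 or NSE4-DOX replicate 1 (0.0788 and 0.0969). PGK1 also lost its call in SMC5 cells without SMC5 replicate 1 (adjusted p = 0.0695). NSE4 replicate 1, which has the highest MT- share, was below replicate 2 for 9 of the 10 genes, with a median log2 difference of 0.33 between them, or 0.26 after MT- loci were left out. The part of the MT- share in the results was not tested. When MT- loci were left out and each sample was rescaled, the median of all loci moved up by 0.18, 0.19 and 0.17 in the 3 backgrounds, and the members moved with it. ENO1 and GAPDH then still fell in each background (ENO1 by 0.62, 0.54 and 0.62), and PKM rose in each, by 0.35, 0.47 and 0.42 (adjusted p = 0.014, 0.0041 and 0.0211). PGK1, HK1 and PFKP did not pass in any single background on that scale. There the split of all called loci in GFP cells was 4532 risen to 1517 fallen, in place of 2691 to 2228. It was 4670 to 1440 in place of 2575 to 2205 in NSE4 cells, and 3351 to 1110 in place of 1747 to 1563 in SMC5 cells. Quantile normalization took GAPDH out of the calls in all 3 backgrounds (differences −0.13, −0.04 and −0.15) and put PKM in. PGK1 in NSE4 cells was −0.17 there and did not pass (limma adjusted p = 0.189). Quantile normalization also raised ALDOA past the threshold in NSE4 and SMC5 cells (0.60 and 0.54) and in the mean of the 3 backgrounds (0.47).

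Ratios between genes of the same library do not change when all its values are multiplied by a single factor. Quantile normalization moves genes by different amounts and can change them. The ratios here are of the deposited values. The PKM to ENO1 ratio of FPKM was 0.529 to 0.584 in the 6 untreated samples and 1.06 to 1.22 in the 5 treated ones. These ratios were chosen after the values were seen and are given as a description. The ratio of GAPDH to TPI1, the triose phosphate isomerase that feeds it, was 4.19 to 5.04 without the drug and 2.26 to 2.54 with it. LDHA to LDHB, the pair of subunits of lactate dehydrogenase, stood at 1.02 to 1.38 and at 1.38 to 2.02, with SMC5 replicate 1 at the upper end of the untreated samples. Among the phosphofructokinases, PFKP to PFKL was 2.10 to 2.27 and 2.06 to 2.30, while PFKP to PFKM was 2.30 to 2.68 and 2.96 to 3.34.

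**Figure D3:**
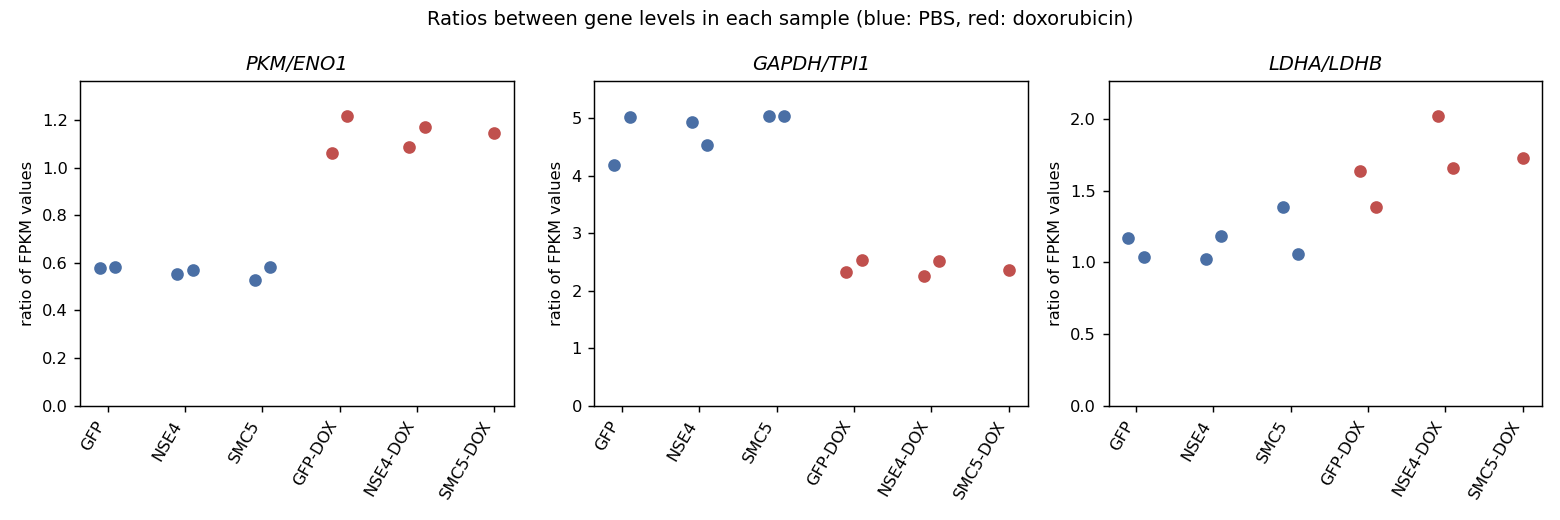
Ratios of FPKM within each sample (vertical axes, linear, from 0) for PKM to ENO1, GAPDH to TPI1 and LDHA to LDHB in the 6 groups; points are samples, blue PBS and red doxorubicin. The PKM to ENO1 ratio is 0.529 to 0.584 in blue and 1.06 to 1.22 in red, and GAPDH to TPI1 is 4.19 to 5.04 in blue and 2.26 to 2.54 in red.

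The study asked how the SMC5/6 complex bears on growth and on the response to doxorubicin, and the plasmid comparisons address this for the pathway. None of the 10 genes passed the test between NSE4 and GFP cells or between SMC5 and GFP cells, with or without the drug. Without the drug the NSE4 differences ran from −0.07 (HK2) to 0.09 (PGK1), and the SMC5 differences from −0.05 (HK2) to 0.20 (PGK1). In limma's test 0 of the 10 had an unadjusted p under 0.05 for NSE4 and 1 for SMC5, which was PGK1 (unadjusted p = 0.0486, adjusted p = 1). Of all tested loci 0.0442% were called for NSE4 and 0% for SMC5, where 489 of all loci had an unadjusted p under 0.05. With the drug the 10 differences were 0.05 to 0.23 for NSE4 and 0.07 to 0.28 for SMC5, largest for LDHA and ALDOA. All 10 point estimates were above 0 in both comparisons, which share the GFP-DOX libraries. The share of all loci with such signs was not counted. GAPDH turned to −0.0069 for NSE4 under quantile normalization. Again 0 of 10 passed, and 0 of 10 had an unadjusted p under 0.05 in either, beside 0.0568% of loci called for NSE4 and 0.0316% for SMC5.

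The precision of these comparisons differed between genes. For ENO1 the 95% interval of the NSE4 difference ran from −0.18 to 0.28 without the drug and from −0.12 to 0.34 with it, and for GAPDH from −0.18 to 0.29 on both occasions. For SMC5 the intervals with the drug were −0.16 to 0.40 for ENO1 and −0.22 to 0.36 for GAPDH. The widest were those of HK2, from −0.65 to 0.50 for NSE4 without the drug and from −0.48 to 0.93 for SMC5 with it. A change as large as the doxorubicin difference of ENO1 lay outside its intervals in all 4 plasmid comparisons, whereas for HK2 smaller shifts could not be resolved.

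**Figure D4:**
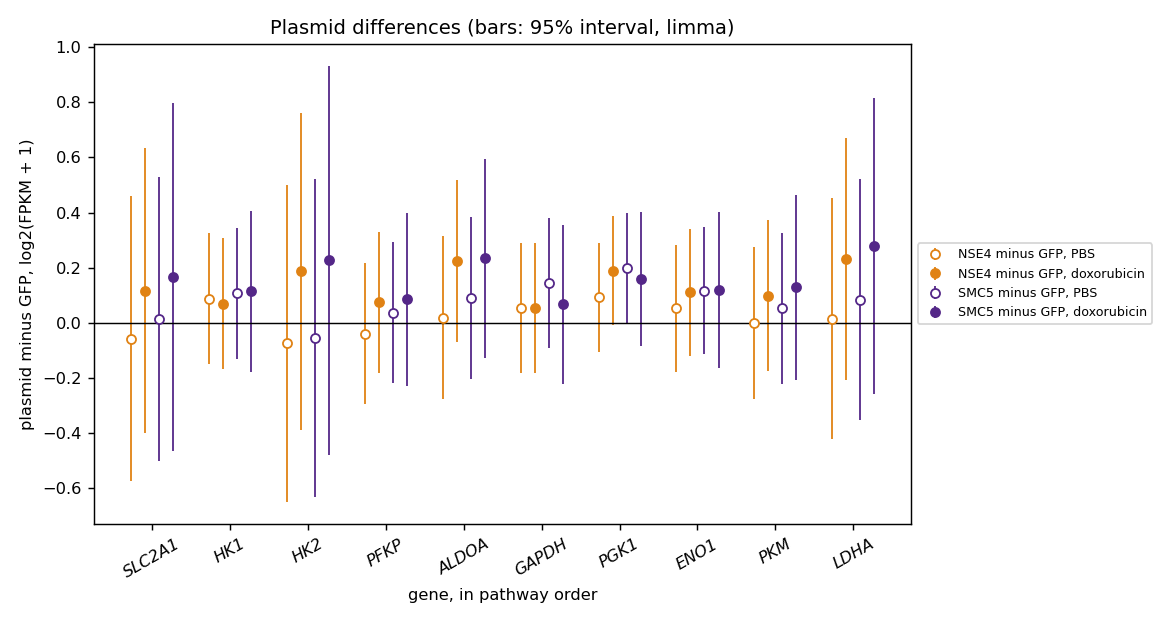
NSE4 or SMC5 minus GFP on the log2(FPKM + 1) scale (vertical axis) for the 10 genes in pathway order (horizontal axis), without (open) and with (filled) doxorubicin; bars are 95% intervals from limma. The points lie between −0.07 and 0.28, and every interval reaches 0 or beyond except that of PGK1 for SMC5 without the drug.

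The response to doxorubicin was also compared directly between backgrounds. The NSE4 response minus the GFP response ranged from −0.02 (HK1) to 0.26 (HK2), and the SMC5 response minus the GFP response from −0.08 (GAPDH) to 0.28 (HK2). None of the 10 passed in either interaction, and 0 had an unadjusted p under 0.05 in limma's test, beside 0.0316% and 0.0189% of all loci called. For ENO1 the interaction was 0.06 for NSE4 (95% interval −0.27 to 0.38) and 0.00 for SMC5 (−0.36 to 0.37). HK1 falling past the threshold in 2 backgrounds and PFKP in 1 is therefore not shown to be a difference between backgrounds.

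The remaining enzymes of the pathway were mixed as well. Beside the counts of this and the following lists, 14.1%, 13.9% and 9.87% of all tested loci fell in GFP, NSE4 and SMC5 cells. The shares that rose were 17%, 16.3% and 11%. No list was tested as a set. Of 19 other glycolysis enzymes 9 could be tested, 7 were below the filter and 3 (GPI, ALDOC and ENO2) share a locus with another coding gene. In GFP cells 2 rose and 2 fell, in NSE4 cells 3 and 3, and in SMC5 cells 1 and 3; leaving out NSE4 replicate 1 gave 2 and 4 in NSE4 cells. ENO3, the muscle-type enolase, went from 14.9 ± 0.948 to 39.3 ± 1.75 FPKM in GFP cells (SD, n = 2) and rose by 1.34, 1.37 and 1.27 in the 3 backgrounds, while ENO1 fell. Even so, ENO3 in GFP-DOX cells was far below ENO1 at 926 ± 25.5 FPKM. LDHB, the subunit that predominates in oxidative tissue, went from 688 ± 7.18 to 405 ± 39.2 FPKM in GFP cells and fell by 0.77, 0.83 and 0.63 (limma adjusted p = 6.37e-04, 4.52e-04 and 0.00618). PFKM, the muscle-type phosphofructokinase, fell by 0.71, 0.65 and 0.64. TPI1 rose by 0.37 in NSE4 cells (limma adjusted p = 0.0493), with differences of 0.30 and 0.41 in GFP and SMC5 cells that did not pass (adjusted p = 0.0955 and 0.0904). The NSE4 call lay just under the threshold, with TPI1 spread widely at 672 ± 130 FPKM in NSE4 cells against 863 ± 27.3 in NSE4-DOX cells. A difference between backgrounds is not shown, as its interactions of 0.07 for NSE4 and 0.10 for SMC5 did not pass.

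Among 14 other glucose transporters 6 were tested, and 1 rose and 1 fell in each background. SLC2A8, an intracellular transporter, went from 9.15 ± 0.2 to 22.3 ± 6.63 FPKM in GFP cells and rose by 1.17, 1.31 and 1.15. SLC2A12 stood at 4.24 ± 0.0477 FPKM in GFP cells and fell by 0.64, 0.73 and 0.82, and lost its call in NSE4 cells without NSE4 replicate 1. SLC2A3, the high-affinity transporter GLUT3, was at 8.57 ± 1.53 FPKM in GFP cells, far below SLC2A1, and did not pass (limma adjusted p = 0.416, 0.218 and 0.763).

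Of 6 lactate transport genes 5 were tested. BSG, the chaperone of the monocarboxylate transporters, went from 442 ± 17.1 to 715 ± 74.4 FPKM in GFP cells and rose by 0.69, 0.69 and 0.68. SLC16A1, the transporter MCT1, rose by 0.65, 0.87 and 0.93. SLC16A3, the exporter MCT4, fell by 0.54 in GFP cells (limma adjusted p = 0.0143), with differences of −0.35 and −0.39 in the others that did not pass. EMB, a chaperone related to BSG, went from 4.58 ± 0.0751 to 1.99 ± 0.252 FPKM in GFP cells and fell by 0.90, 0.66 and 0.66. The count was thus 2 risen and 2 fallen in GFP cells, and 2 and 1 in NSE4 and in SMC5 cells.

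Of 17 regulators of glycolysis 10 were tested, and 4, 3 and 1 rose in GFP, NSE4 and SMC5 cells while 1 fell in each. Without NSE4 replicate 1 fewer of them rose in NSE4 cells. TIGAR, a p53 target that lowers fructose 2,6-bisphosphate, went from 7.48 ± 0.492 to 49.8 ± 1.55 FPKM in GFP cells and rose by 2.58, 2.61 and 2.63. MYC, which activates many of these enzymes' genes, went from 182 ± 14.4 to 113 ± 11.8 FPKM and fell by 0.68, 0.62 and 0.76 (limma adjusted p = 0.00221, 0.00344 and 0.00554). PFKFB2, a kinase that makes fructose 2,6-bisphosphate, rose by 0.54 in GFP cells. MLXIPL, the carbohydrate response factor ChREBP, rose by 0.64 in GFP and 0.83 in NSE4 cells, with a difference of 0.72 in SMC5 cells (adjusted p = 0.0545). HIF1A and ARNT share loci with other coding genes and were not assigned values. No gene of these lists was called in a plasmid comparison or an interaction.

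The members' patterns over the 6 group means were compared with each other and with other genes, as mean absolute differences of centred log2 levels. HK1 and PGK1 were each other's nearest member (0.04), as were SLC2A1 and ALDOA (0.04) and ENO1 and GAPDH (0.08). PKM was farthest from any other, at 0.13 from ALDOA. Among 5372 other loci with a mean of at least 10 FPKM, the 5 nearest to the members' mean pattern were MAGEF1, COQ5, RAB17, CMIP and C1QL4, at 0.01 to 0.02. MAGEF1, for example, went from 41.1 FPKM in GFP to 31.3 in GFP-DOX cells.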

How the data were processed

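Messenger RNA of 12 HCT116 libraries, 2 in each of 6 groups, was sequenced. The authors deposited FPKM values per locus, made with TopHat and Cufflinks per the submitters' processing notes; versions and genome build are not given in the sources used here, so no coordinates of the table are printed. All 12 columns were used. The 2 SMC5-DOX columns were averaged as 1 sample because they agree beyond what separate libraries of this kind do (in identical values and in loci above 0 in only 1 of them). At the best-fitting depth, 17.2 to 23.7% of low values came within 0.05 of a whole fragment number, so no counts were recovered.

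Values were fitted as log2(FPKM + 1) with limma 3.58.1 (R 4.3.3), an intensity trend in the prior variance, all 6 groups in 1 fit and 5 residual degrees of freedom. Loci with at least 1 FPKM in at least 2 samples were kept (15833), and p-values were adjusted by Benjamini-Hochberg within each comparison, at 0.05. The script was tested on simulated data. The 9 planned comparisons were doxorubicin in 3 backgrounds, 4 plasmid comparisons and 2 interactions. Differences are on this log2 scale and understate changes of low values. The members, lists and tests were chosen with earlier results of these data known. All 10 members are named in every comparison; of each list of other genes up to 3 with the smallest p per comparison are named, and others (TPI1, SLC16A3, HIF1A and ARNT among them) were added after their values were seen. List genes that share a locus with a second coding gene were left out. Tables were made in Python 3.11.15 (numpy 2.4.6, pandas 2.3.3) and plots with matplotlib 3.10.9, GENCODE 29 gave gene types and exons, and RefSeq (GRCh38.p14) the promoter sequences.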

Additional observations from a re-analysis of the deposited data

How the results depend on the processing

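Each planned comparison was refitted under 11 other settings and without each of its libraries in turn, and the mean of the 3 doxorubicin differences under 10 and without each of the 12. In GFP cells the number of members called was 5, and 3 when MT- loci were left out, with no intensity trend, and without each library (3 to 3). In NSE4 cells it was 4, and 1 when only the groups compared were fitted, and 2 to 4 without each library. In SMC5 cells it was 3, and 5 under quantile normalization and with GC adjustment (added after seeing the data), 0 when only the groups compared were fitted, and 2 to 4 without each library. In the mean of the 3 it was 7, with 5 to 7 otherwise, where the 7 under quantile normalization held ALDOA in place of GAPDH. In GFP cells it was also 4 with no filter and when only the groups compared were fitted. It was 6 there with at least 1 FPKM required in every sample, with median-of-ratios, quantile or GC adjustment, with 12 columns as separate samples, and with the replicate block. HK2 was among the 6 each time. The number called stayed at 0 in all plasmid and interaction fits. The labels do not say that replicate numbers pair the samples, and correlations of deviations were −0.039 to 0.073 over the 10 pairs of groups without SMC5-DOX. They were 0.16 to 0.227 over the 5 pairs with SMC5-DOX, whose columns count as 1 sample. The MT- share was higher in replicate 1 than in replicate 2 in all 6 groups. With the replicate block 6, 5, 4 and 7 members were called. It brought in HK2 in GFP (limma adjusted p = 0.045), PKM in NSE4 (0.0427) and HK1 in SMC5 cells (0.0462), and ended no call of a member in the 3 backgrounds or in their mean.

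Reversals concerned differences that had not passed in the fit described above. Among the reversed values, ALDOA passed as a rise under quantile normalization, in SMC5 cells and in the mean. With MT- loci left out SLC2A1 was 0.026, 0.17 and 0.14 (GFP, SMC5, mean), ALDOA 0.037, 0.17 and 0.16, and LDHA 0.11, 0.072 and 0.023 (NSE4, SMC5, mean). With quantile normalization ALDOA was 0.28, 0.54 and 0.47 (GFP, SMC5, mean), LDHA 0.21, 0.21 and 0.12 (NSE4, SMC5, mean), SLC2A1 0.070 and 0.027 (SMC5, mean), and GAPDH −0.0069 for NSE4 against GFP with the drug. In NSE4 cells SLC2A1 and ALDOA were −0.053 and −0.012 with median-of-ratios scaling and −0.10 and −0.053 with GC adjustment. Without single libraries SLC2A1 ran from −0.35 to 0.0023 in GFP, −0.37 to 0.38 in NSE4, −0.14 to 0.095 in SMC5 cells and −0.19 to 0.061 in the mean. ALDOA ran from −0.13 to 0.21 in NSE4, −0.076 to 0.035 in SMC5 cells and −0.10 to 0.010 in the mean. LDHA ran from −0.28 to 0.080 and from −0.29 to 0.046 in NSE4 and SMC5 cells. Against GFP with the drug, HK1 and HK2 in NSE4 cells ran from −0.044 to 0.19 and from −0.038 to 0.41, and PFKP in SMC5 cells from −0.016 to 0.18. The cause was not tested.

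Over all loci 4919 were called in GFP cells (2956 to 3554 without each library), 4780 in NSE4 cells (2926 to 3598) and 3310 in SMC5 cells (1798 to 3523), against 3168, 2437 and 0 when only the groups compared were fitted. In the plasmid and interaction comparisons, with 0 to 9 loci called, the counts with no filter were 100 (NSE4 with the drug), 539 (SMC5 with the drug), 71 and 431 (NSE4 and SMC5 interactions). Since the depth is unknown, counting error could not be separated from other spread.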

Other observations

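Genes around the pathway are described here by the same test. Of all tested loci 14.1%, 13.9% and 9.87% fell in GFP, NSE4 and SMC5 cells, and 17%, 16.3% and 11% rose. Of 14 genes of pyruvate entry into mitochondria 13 were tested, and in GFP, NSE4 and SMC5 cells 3, 5 and 2 fell while 1, 0 and 0 rose. Without NSE4 replicate 1, the number fallen in NSE4 cells was 3. PDP1, the phosphatase that activates pyruvate dehydrogenase, went from 287 ± 17.3 to 142 ± 5.03 FPKM in GFP cells (SD, n = 2) and fell by 1.01, 1.04 and 0.91 on the log2 scale. DLAT, a core subunit of that enzyme, stood at 20.6 ± 1.74 FPKM in untreated GFP cells and fell by 0.85, 0.77 and 0.86. PDK4, a kinase that inactivates the enzyme, fell by 0.73 in NSE4 cells (limma adjusted p = 0.0242), with differences of −0.58 and −0.71 in GFP and SMC5 cells that did not pass. PDK4 levels were low, at 2.38 ± 0.392 FPKM in NSE4 and 1.03 ± 0.118 in NSE4-DOX cells, near the filter of 1 FPKM. MPC1, a subunit of the mitochondrial pyruvate carrier, rose by 0.64 in GFP cells, with differences of 0.27 and 0.20 in the others that did not pass. Of 8 pentose phosphate genes 7 were tested, and 1 rose and 1 fell in each background. PGD, 6-phosphogluconate dehydrogenase, went from 103 ± 6.27 to 145 ± 13.2 FPKM in GFP cells and rose by 0.49, 0.51 and 0.53, a call lost in NSE4 cells without NSE4 replicate 1. PGLS, the lactonase of the step before, fell by 0.91, 0.74 and 1.07. RPIA, TKT and TALDO1 passed in no single background.

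All 15 HIF targets outside glycolysis were tested, and 1 rose in each background while 4, 4 and 2 fell in GFP, NSE4 and SMC5 cells. Without NSE4 replicate 1, the number fallen in NSE4 cells was 2. VEGFA, the endothelial growth factor, went from 49.2 ± 1.83 to 87.6 ± 1.43 FPKM in GFP cells (SD, n = 2) and rose by 0.82, 0.99 and 1.01. DDIT4, an inhibitor of mTORC1 signalling, went from 209 ± 18.9 to 119 ± 4.61 FPKM and fell by 0.81, 0.66 and 0.83. ADM, the vasodilator adrenomedullin, fell by 0.96, 0.83 and 0.94. Members of this list thus moved in both directions. Beside them, 14.1%, 13.9% and 9.87% of all tested loci fell in GFP, NSE4 and SMC5 cells, and 17%, 16.3% and 11% rose. Of the 4 epithelial markers tested, KRT18 fell by 0.63, 0.55 and 0.58 in GFP, NSE4 and SMC5 cells. KRT8 rose by 0.30 and 0.35 in GFP and NSE4 cells, with a difference of 0.36 in SMC5 cells (limma adjusted p = 0.0501). The KRT8 call in NSE4 cells was lost without NSE4 replicate 1. EPCAM and CDH1 passed in no single background, nor did COL1A1.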
